A study of Bos taurus with 4 samples.

Results

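The genes described here build, bind or remodel the extracellular matrix around the cells of bovine subcutaneous fat: basement membrane and other collagens, laminin chains, integrins, matrix metallopeptidases (MMPs), ADAM and ADAMTS proteases, their tissue inhibitors (TIMPs), lysyl oxidases, fibulins and fibronectin. They were found by the words in the descriptions of the deposited sequences, a rule that was set with earlier results of these data known, and the fibrillar collagens COL1A1, COL1A2, COL3A1 and COL11A1 were left out. Of 36373 UniGene clusters (sets of transcript sequences taken to come from 1 gene), 113 were members, 112 of them with a gene symbol. They fell into 14 groups by role.

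Subcutaneous fat of Qinchuan cattle, a Chinese breed, came from fetuses of 200 to 250 days (ATFB) and from cattle of 18 to 24 months: bulls (ATAB), heifers (ATAH) and castrated males, or steers (ATAS). The sex of the fetuses was not given in the labels, and no other treatment was named for any group. Tissue of 5 animals per group was pooled before RNA extraction, which gave 1 library a group and no replicate. A comparison of 2 libraries therefore compared those pools, not the conditions.

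Basement membranes are thin sheets of collagen IV and laminin that surround each fat cell and underlie blood vessels. Integrins are pairs of 1 alpha and 1 beta chain that span the cell membrane and hold the cell to laminin, fibronectin or collagen. MMPs and ADAMTS proteases cut matrix proteins, TIMPs block them, and lysyl oxidases join collagen and elastin chains to each other. Developing fat is known to pass from a loose matrix rich in fibronectin and interstitial collagen to one in which each enlarging fat cell sits in its own basement membrane.

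The 4 libraries held 15.3 to 16.1 M counted reads, and the members took 1.98% of them in ATFB and 2.42%, 2.16% and 2.48% in ATAB, ATAH and ATAS. A read was found in all 4 libraries for 102 members, 80 members had at least 100 reads in some library, and 33 stayed under that. Levels are given in RPKM (reads scaled to the length of the cluster sequence and to the counted reads of the library), in which 3 reads on a sequence of 1 kb make 0.186 to 0.196. Markers of fat cells were present in each library but lower in the fetal one, with a summed level over 7 genes of 814 RPKM in ATFB and 10350, 10760 and 7389 RPKM in ATAB, ATAH and ATAS. Over 9 leukocyte markers the sum was 329, 839, 1106 and 1982 RPKM, over 8 endothelial markers 568, 411, 600.1 and 775, and over 5 markers of preadipocytes and fibroblasts 1214, 350.3, 316 and 425, in the same order. Adult fat thus had more fat cell and leukocyte RNA per read and a lower sum over the preadipocyte and fibroblast list than fetal fat. The median log2 ratio to ATFB of that list was -0.85, -0.99 and -0.71 in ATAB, ATAH and ATAS. In such bulk tissue, fewer cells of a type and less RNA per cell cannot be told apart.

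A member was called in a comparison of 2 libraries where the exact two-sided binomial test of its reads gave an FDR (false discovery rate over all clusters tested) of 0.001 or less and the log2 ratio of RPKM was at least 1 in size. Against ATFB, 25 of 111 members with a read in either library were called higher in ATAB and 18 lower, while 9.61% of all clusters tested were called higher and 13.3% lower. In ATAH, 27 of 112 were called higher and 21 lower, against 14% and 10% of all clusters. In ATAS, 31 of 112 were called higher and 21 lower, against 15.6% and 10.8%. The called members were 38.7%, 42.9% and 46.4% of those tested in ATAB, ATAH and ATAS, against 22.9%, 24.1% and 26.3% of all clusters. These 3 comparisons share the ATFB library. The median log2 ratio of members to ATFB was -0.10, 0.11 and 0.26 in ATAB, ATAH and ATAS, and that of all clusters with a ratio was -0.17, 0.11 and 0.13, so members moved both ways rather than together. With ACTB as the scaling gene the split in ATAB became 16 higher and 26 lower, in ATAH 21 and 27, and 24 and 24 in ATAS. Where a biological coefficient of variation of 0.4 was assumed in edgeR's exact test, 1 to 3 members were called higher and 2 lower in each comparison with ATFB, among them COL2A1 and COL11A2 on the lower side and ITGAL on the higher.

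The level of each group in the 4 libraries showed where the bulk of these transcripts lay. Basement membrane collagens summed to 645 RPKM in ATFB and 1344, 1284 and 1321 RPKM in ATAB, ATAH and ATAS. The MMPs went the other way, from 920.1 RPKM in ATFB to 277, 289.5 and 352 RPKM. The lysyl oxidases also had their highest sum in ATFB, with 213, 133, 85.2 and 87.7 RPKM. ADAMTS proteases stood at 66.3 RPKM in ATFB and 79.0 in ATAB but 162 in ATAH and 213 in ATAS.

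**Figure D1:**
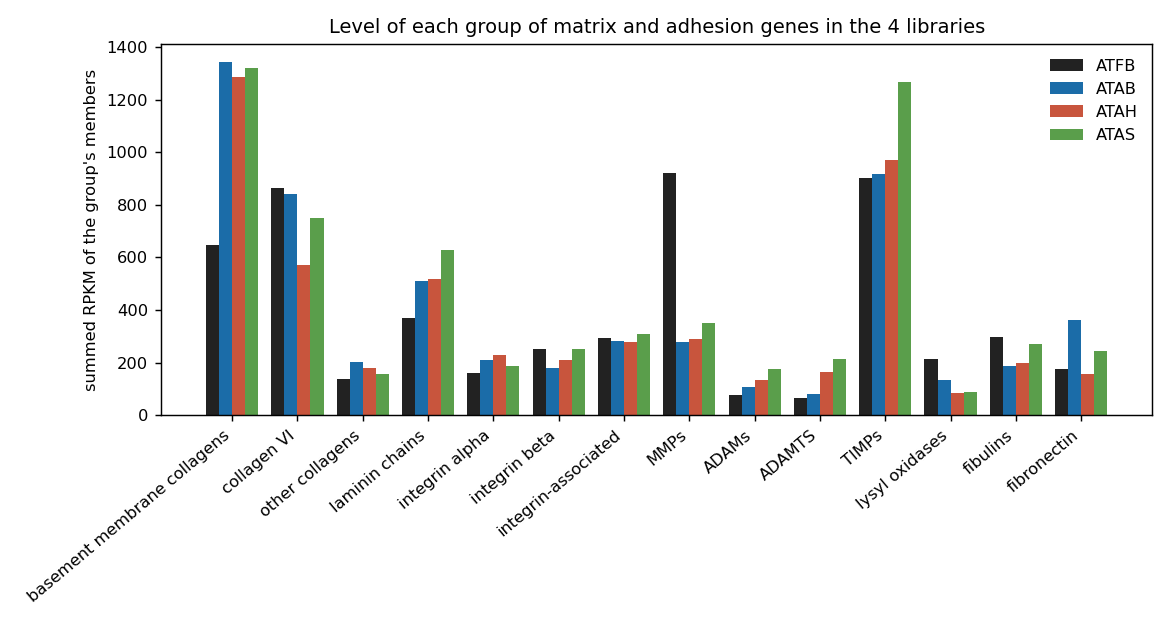
Bars give the summed RPKM of the members of each of the 14 role groups in the 4 libraries, on a linear axis from 0, with 1 pooled library per bar and no error bar. Basement membrane collagens and laminins were lowest in ATFB, MMPs and lysyl oxidases were highest there, and ADAMTS proteases were highest in ATAS.

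Among the basement membrane collagens, COL4A1 and COL4A2, the chains of the common collagen IV network, were the most abundant. COL4A1 stood at 279.5 RPKM in ATFB and 633, 566 and 602 in ATAB, ATAH and ATAS. COL4A2 followed it at 221, 509.8, 472 and 480.0 RPKM. All adult values lay above the fetal one, and the adult libraries lay close together. The ratio of COL4A1 to COL4A2 was 1.26, 1.24, 1.20 and 1.25 in ATFB, ATAB, ATAH and ATAS, so the chains stood in nearly the same proportion in each library. COL4A1 was called higher in each adult library, by 2.26-fold in ATAB (log2 ratio 1.18, 95% interval 1.16 to 1.20), 2.02-fold in ATAH and 2.15-fold in ATAS. With ACTB as the scaling gene its log2 ratios fell to 0.94, 0.75 and 0.85 and those of COL4A2 to 0.97, 0.82 and 0.86, all under the threshold. With edgeR's TMM normalization both stayed called in ATAB, while the log2 ratios in ATAH and ATAS became 0.92 and 0.99 for COL4A1 and 0.991 and 0.998 for COL4A2. The summed fat cell markers were 814 RPKM in ATFB and 7389 to 10760 in the adult libraries, and their part in the collagen IV levels was not tested.

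In the test of stage the collagen IV difference was not called, although both chains varied little between the 3 adult libraries. Their adult mean and standard deviation were 600.1 and 33.35 RPKM for COL4A1 and 487.2 and 19.95 RPKM for COL4A2. This test draws part of its error from the spread of all genes, so the result does not rest on these 2 genes alone. In that test of stage (edgeR's quasi-likelihood test with the 3 adult libraries on 1 side and ATFB on the other) the log2 fold change was 1.09 for COL4A1 with an adjusted p of 0.14 and 1.12 for COL4A2 with an adjusted p of 0.13. COL18A1 and COL15A1 are outside the rule for named genes and were chosen after their values were seen. COL18A1, the source of the fragment endostatin, had 67.2 RPKM in ATFB and 94.99, 154 and 149 in ATAB, ATAH and ATAS. It was called higher than ATFB in ATAH and ATAS, calls lost with ACTB as the scaling gene (0.92 and 0.90). COL15A1, which links basement membranes to the tissue around them, ranged from 75.3 RPKM in ATFB to 105 in ATAB and was called in no comparison. The chains of specialised basement membranes were scarce. COL4A3 had no reads in ATFB and 6 to 8 in the adult libraries, and COL4A6 had 159, 170, 102 and 68 reads, called lower in ATAS than in ATFB and ATAB.

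The coding sequences show how these collagens are built. A collagen helix needs glycine at regular steps, so a codon GGN recurs every 9 bases, and interruptions of this run make collagen IV flexible. Read in frame on the coding strand, a run of at least 10 such codons occurred in 22 members, all of them collagens, and in 0.500% of the 12194 clusters with a readable coding sequence. The longest run was 40 codons in COL4A1 and 66 in COL4A2, but 337 in COL5A3, 338 in COL11A2 and 339 in COL2A1. The first 36 bases of the longest run are shown for some of the collagens described here, chosen with their values known, with the glycine codons in capitals.
COL4A2: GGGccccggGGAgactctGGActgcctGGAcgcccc
COL5A3: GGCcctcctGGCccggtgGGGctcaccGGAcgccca
COL2A1: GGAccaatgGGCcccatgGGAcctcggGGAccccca
COL11A2: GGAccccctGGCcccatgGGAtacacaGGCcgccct
COL12A1: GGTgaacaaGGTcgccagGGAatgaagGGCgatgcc
COL8A1: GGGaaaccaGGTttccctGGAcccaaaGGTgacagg

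Laminins are trimers of 1 alpha, 1 beta and 1 gamma chain, and the balance of alpha chain transcripts differed between the fetal and adult libraries. LAMA2, the alpha chain best known from muscle, had 62.5 RPKM in ATFB and 18.7, 24.6 and 33.05 in ATAB, ATAH and ATAS. LAMA4, the alpha chain of vessels and fat cells, had 56.0, 124, 106 and 108 RPKM. The ratio of LAMA4 to LAMA2 was thus 0.895 in ATFB and 6.61, 4.30 and 3.28 in the adult libraries. LAMA2 was called lower in ATAB (log2 ratio -1.74, 95% interval -1.84 to -1.64) and ATAH, and in ATAS its log2 ratio was -0.92 (-1.04 with TMM and -1.17 with ACTB as the scaling gene). It was also called lower in the test of stage, with an adjusted p of 0.030 (edgeR). LAMA4 was called higher in ATAB (log2 ratio 1.15, but 0.91 with ACTB as the scaling gene), had log2 ratios of 0.92 and 0.95 in ATAH and ATAS, and was not called in the test of stage (edgeR adjusted p = 0.12).

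Of the beta chains, LAMB1 was called between adult pools, while LAMB2 and LAMB3 were not. LAMB1 had 46.0 RPKM in ATFB and 38.5, 69.8 and 116 in ATAB, ATAH and ATAS, and was called higher in ATAS than in ATFB (log2 ratio 1.33) and than in ATAB (log2 ratio 1.59). LAMB2 had 77.5, 142, 165 and 216 RPKM and was called higher than ATFB in ATAH and ATAS, in ATAH only without rescaling (0.99 with TMM and 0.81 with ACTB). Both beta chains were highest in ATAS, and their ratio of LAMB2 to LAMB1 was 1.68, 3.67, 2.36 and 1.87. The gamma chain LAMC1, shared by most laminins, had the narrowest range of the 8 chains, from 117 RPKM in ATFB to 181 in ATAB, and was called in no comparison. LAMA3 and LAMB3, chains of epithelial laminin, were low: LAMA3 lay between 2.77 and 6.14 RPKM and LAMB3 between 1.34 and 3.95. LAMA3 was highest in ATFB and called lower in ATAH and ATAS, while in ATAB its log2 ratio was -0.84 (-1.07 with ACTB). LAMB3 was highest in ATAH and called higher there and, except with ACTB as the scaling gene (0.86), in ATAB. Keratinocyte markers (KRT14 and DSP, 2 of 4 listed) summed to 6.59 RPKM in ATFB and at most 0.388 in the adult libraries, with KRT14 at 0 in ATAB, and their part in the levels of LAMA3 was not tested.

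**Figure D2:**
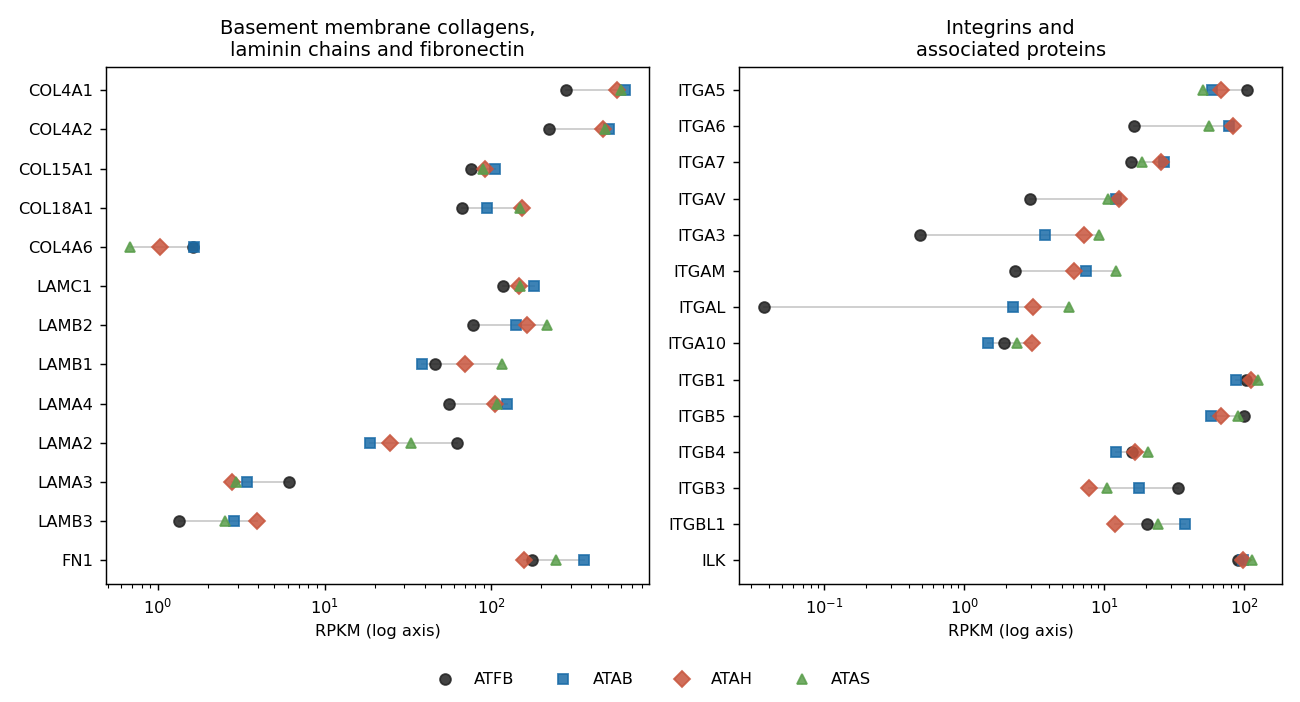
Each point is the RPKM of a gene in 1 library on a log axis, circles ATFB, squares ATAB, diamonds ATAH and triangles ATAS, and a grey line joins the lowest to the highest library. LAMA2 and LAMA4 lie on opposite sides of the fetal library, and ITGA5 and ITGA6 likewise, while ITGB1, ILK and LAMC1 differ little.

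Integrin alpha chains were the group with the most calls on the higher side. Of 14, 8 were called higher than ATFB in each adult library, where 9.61%, 14% and 15.6% of all clusters were called higher in ATAB, ATAH and ATAS. They were ITGA1, ITGA3, ITGA6 and ITGAV and the leukocyte chains ITGAL, ITGAM, ITGA4 and ITGAD, with ITGA4 and ITGAD under 100 reads in every library. Called lower were ITGA2 in ATAB, picked after its values were seen (50, 19, 60 and 53 reads in ATFB, ATAB, ATAH and ATAS), and ITGA5 in ATAS. ITGA6, a laminin receptor, had 16.4 RPKM in ATFB and 77.3, 82.4 and 55.9 in ATAB, ATAH and ATAS. ITGA5, the fibronectin receptor chain, had 105, 58.7, 68.0 and 50.8 RPKM. The fetal library held 6.42 times as much ITGA5 as ITGA6 per length, and the adult libraries 0.759, 0.825 and 0.909 times as much. ITGA6 was called higher in each adult library, by 4.71-fold in ATAB, 5.02-fold in ATAH and 3.41-fold in ATAS, and in the test of stage with an adjusted p of 0.025 (edgeR). ITGA5 was called lower in ATAS (log2 ratio -1.05), and -0.84 in ATAB and -0.63 in ATAH, as log2 ratios, did not pass, though ATAB did with ACTB as the scaling gene (-1.08).

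ITGA3, another laminin receptor chain, had 14 reads in ATFB and 115, 211 and 272 in ATAB, ATAH and ATAS. Its adult libraries lay 7.77 to 19.1 times above the fetal one, with an adjusted p of 0.014 for stage (edgeR). ITGAV, which pairs with several beta chains to bind vitronectin and fibronectin, had 2.93 RPKM in ATFB and 12.1, 12.8 and 10.5 in the adult libraries, an adjusted p of 0.016 for stage (edgeR). The collagen receptor chain ITGA10 had 1.91, 1.48, 3.04 and 2.37 RPKM and was called higher in ATAH than in ATAB (log2 ratio 1.04), a call lost with edgeR's TMM normalization. ITGA1, the collagen receptor chain that is outside the rule for named genes and was picked after its values were seen, had 181, 441, 552 and 549 reads. In ATAB its log2 ratio of 1.20 fell under the threshold with ACTB as the scaling gene (0.97).

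Leukocyte integrin chains were among the larger differences. ITGAL, the alpha chain of LFA-1 on lymphocytes, had 2 reads in ATFB and 127, 173 and 308 in ATAB, ATAH and ATAS, a log2 ratio in ATAS of 7.24 (95% interval 5.38 to 10.29). ITGAM, a chain of macrophages and granulocytes, had 2.29, 7.36, 6.03 and 12.2 RPKM. Both were called higher than ATFB in all 3 adult libraries and in the test of stage, with adjusted p of 0.0098 and 0.036 (edgeR). ITGAL was also called higher in ATAS than in ATAB (2.52-fold), and ITGAM in ATAS than in ATAH (log2 ratio 1.01, but 0.99 with TMM). ITGAD, ITGA4 and the beta chain ITGB7, chosen after their values were seen, are leukocyte chains too: ITGAD had no read in ATFB and 52, 25 and 69 in the adult libraries, at least 8.16-fold higher when the 0 is set to 3 reads, ITGA4 had 9, 92, 46 and 89 reads, and ITGB7 53, 120, 162 and 210. The leukocyte markers moved with them, from 329 RPKM in ATFB to 1982 in ATAS, with 6, 5 and 6 of 9 called higher and none at 0 in ATFB, and their part in the levels of these integrins was not tested.

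Of 7 beta chains, 1, 2 and 2 were called higher than ATFB in ATAB, ATAH and ATAS and 0, 1 and 1 lower. With so few chains, a single call is near the share of all clusters (9.61%, 14% and 15.6% higher, and 13.3%, 10% and 10.8% lower). ITGB7, described above, was called higher in each adult library, in ATAB not with ACTB as the scaling gene (0.86), and in the test of stage (edgeR adjusted p = 0.039). ITGB8, picked after its values were seen, had no read in ATFB and 11, 25 and 23 in ATAB, ATAH and ATAS. With the 0 set to 3 reads it was at least 8.16-fold higher in ATAH and 7.53-fold in ATAS, both called, and it was called higher in the test of stage (edgeR adjusted p = 0.030). ITGB1, the partner of most alpha chains, had 103 RPKM in ATFB and 87.6, 111 and 125 in ATAB, ATAH and ATAS and was called in no comparison. ITGB5 and ITGB4, picked after their values were seen, lay between 57.95 and 99.2 RPKM and between 12.2 and 20.6 RPKM and were not called, though the log2 ratio of ITGB5 in ATAB to ATFB went from -0.78 to -1.01 with ACTB as the scaling gene. ITGB3, a fibronectin and vitronectin receptor chain outside the rule for named genes and chosen after its values were seen, was highest in ATFB, with 33.6, 17.6, 7.80 and 10.4 RPKM, and was called lower in ATAH and ATAS than in ATFB and lower in ATAH than in ATAB. In ATAB its log2 ratio to ATFB was -0.93, or -1.17 with ACTB. Of the 11 integrin-associated and other proteins, none was called higher than ATFB in any adult library and 1 was called lower, in ATAB. That 1 was ITGB1BP1, an integrin-binding adaptor picked after its values were seen, with 28.9 RPKM in ATFB and 13.5, 16.4 and 15.6 in the adult libraries. Its log2 ratio of -1.10 in ATAB became -0.93 with TMM, and those of -0.82 and -0.89 in ATAH and ATAS became -1.09 and -1.14 with ACTB. The test of stage called ITGB1BP1 lower, with a log2 fold change of -0.97. ILK, the kinase-like adaptor on the inner side of integrins, kept to 90.6, 97.6, 98.3 and 113 RPKM. ITGBL1 and EGFLAM differed between adult pools instead. ITGBL1 had 20.2, 37.5, 11.9 and 24.3 RPKM and was called lower in ATAH than in ATAB. Its log2 ratio was -1.65, or -1.93 with TMM and -1.69 with ACTB. EGFLAM had 10.6, 6.25, 12.9 and 11.8 RPKM and was called higher in ATAH than in ATAB (log2 ratio 1.05, but 0.77 with TMM). In that comparison 4.32% of all clusters were called higher and 1.26% lower.

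Fibronectin, the ligand of ITGA5, was highest in bulls. FN1 had 175 RPKM in ATFB and 361, 158 and 244 in ATAB, ATAH and ATAS. The bull pool stood highest, with the fetal level between those of heifers and steers. FN1 was called higher in ATAB than in ATFB (log2 ratio 1.05, 95% interval 1.02 to 1.07), a call lost with ACTB as the scaling gene (0.81), and lower in ATAH than in ATAB (log2 ratio -1.19). The test of stage did not call it (edgeR adjusted p = 0.54).

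Collagen VI, a beaded microfilament next to the basement membrane, was abundant in each library. COL6A1 had 592, 525, 356 and 471 RPKM and COL6A2, outside the rule for named genes, 273, 316, 216 and 278 RPKM in ATFB, ATAB, ATAH and ATAS. Neither was called in any comparison, and both were lowest in ATAH, where the log2 ratio of COL6A1 to ATFB was -0.73, or -1.01 and past the threshold with ACTB as the scaling gene.

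Some of the other collagens had wide differences from ATFB. COL2A1, the main collagen of cartilage, had 1459 reads in ATFB and 2 in ATAB, 14 in ATAH and 10 in ATAS. COL11A2, a minor fibrillar chain of cartilage, had 992, 11, 12 and 49 reads. Both had far more reads in the fetal library than in any adult one, with log2 ratios of -9.59 (95% interval -12.64 to -7.74), -6.73 and -7.21 for COL2A1 and -6.58, -6.40 and -4.37 for COL11A2. They were called lower in the test of stage with adjusted p of 0.0051 and 0.0085 (edgeR). Other chondrocyte markers had few reads in ATFB: ACAN had 49 there and 11 to 20 in the adult libraries (called lower in ATAB and ATAH), MATN3 at most 3 reads, and COMP was highest in ATAS, so that the 3 markers with a cluster summed to 1.31 RPKM in ATFB and 2.54, 1.39 and 11.6 in ATAB, ATAH and ATAS. SOX9 was not analysed here, and the part of cartilage cells in the levels of COL2A1 and COL11A2 was not tested. COL12A1, which sits on the surface of collagen fibrils, had 51.9 RPKM in ATFB and 11.9, 11.5 and 16.7 in the adult libraries, with an adjusted p of 0.014 for stage (edgeR).

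Of the 14 other collagens, 3 were called higher than ATFB and 5 lower in each adult library. Of all clusters, 9.61%, 14% and 15.6% were called higher in ATAB, ATAH and ATAS and 13.3%, 10% and 10.8% lower. The 3 called higher were COL5A3, COL8A1 and COL22A1 each time. Among those called lower, picked after their values were seen, were COL17A1 in ATAB and ATAH (32, 2, 2 and 14 reads) and COL20A1 in ATAB (29, 6, 22 and 22 reads). COL5A3, a fibrillar chain that is known from fat and muscle, had 30.1 RPKM in ATFB and 150.5, 132 and 90.3 in ATAB, ATAH and ATAS. The ratio of COL5A3 to COL12A1 went from 0.580 in ATFB to 12.6, 11.5 and 5.39. COL8A1, a short network-forming chain of vessel walls, had 3.16, 25.2, 25.7 and 40.9 RPKM, and COL22A1, a chain of tissue junctions, had 6, 112, 74 and 247 reads. Their adjusted p in the test of stage were 0.044 for COL5A3, 0.010 for COL8A1 and 0.025 for COL22A1 (edgeR). COL22A1 was also called higher in ATAS than in ATAB and ATAH, by log2 ratios of 1.20 (0.90 with TMM) and 1.74. COL21A1 and COL27A1 differed between adult pools: COL21A1 had 338, 280, 44 and 71 reads, so it was called lower in ATAH and ATAS than in ATAB, and COL27A1 had 841, 469, 607 and 154 reads, lowest in ATAS. COL27A1 was the only member called lower in ATAS than in ATAH (log2 ratio -1.98, 95% interval -2.24 to -1.72).

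The proteases split by family. No MMP was called higher in ATAB or ATAS than in ATFB, while MMP9 was called higher in ATAH (32, 56, 89 and 66 reads, picked after its values were seen) and 6, 6 and 5 of 10 were called lower in ATAB, ATAH and ATAS, where 13.3%, 10% and 10.8% of all clusters were. MMP2, the gelatinase that cuts collagen IV, was the most abundant, with 813 RPKM in ATFB and 209, 240.5 and 300.5 in ATAB, ATAH and ATAS. It was 3.89-fold, 3.38-fold and 2.71-fold lower in the adult libraries, with an adjusted p of 0.023 for stage (edgeR). MMP16, a membrane-bound protease, had 32.2 RPKM in ATFB and 4.46, 2.78 and 4.08 in the adult libraries (edgeR adjusted p = 0.0084 for stage). MMP11, known from remodelling stroma, had 108, 18, 27 and 25 reads (edgeR adjusted p = 0.016). MMP23B had 42.4, 16.9, 7.10 and 8.74 RPKM, was called lower in each adult library and lower in ATAH than in ATAB, and missed the threshold for stage (edgeR adjusted p = 0.051). MMP27 and MMP3, the other members called lower (MMP3 in ATAB and ATAH only), were picked after their values were seen and had 62, 11, 2 and 8 reads and 14, 0, 0 and 4 reads. MMP2 was high in the same library as the summed preadipocyte and fibroblast markers (1214 RPKM in ATFB against 316 to 425 in adults), whose part in its level was not tested. Of these 5 markers, 2 were called lower in each adult library.

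Among ADAMTS proteases, which cut proteoglycans and other matrix proteins, 3, 5 and 6 of 15 were called higher in ATAB, ATAH and ATAS than in ATFB and 1 lower in each, beside 9.61%, 14% and 15.6% of all clusters called higher and 13.3%, 10% and 10.8% lower. ADAMTS15 stood apart between stages, with 1.62 RPKM in ATFB and 12.5, 16.3 and 12.1 in the adult libraries (edgeR adjusted p = 0.0085). ADAMTS19 went the other way, with 122 reads in ATFB and 12, 16 and 14 in the adult libraries (edgeR adjusted p = 0.0089). ADAMTS1, ADAMTS5 and ADAMTS9 instead differed between adult pools. ADAMTS1 had 40.4 RPKM in ATFB and 35.3, 106 and 142 in ATAB, ATAH and ATAS. ADAMTS9 had 2.96, 3.90, 10.7 and 10.03 RPKM, and ADAMTS5, an aggrecanase, 7.63, 8.81, 11.2 and 27.4 RPKM. ADAMTS1 and ADAMTS9 were near the fetal level in bulls and called higher in both heifers and steers, ADAMTS1 by 2.99-fold and 4.03-fold over ATAB and ADAMTS9 by 2.73-fold and 2.57-fold. ADAMTS5 was high in steers alone, 3.11-fold over ATAB and 2.44-fold over ATAH. The 8 endothelial markers with a cluster, none at 0 in ATFB, summed to 568 RPKM in ATFB and 411, 600.1 and 775 in the adult libraries, with 1 called higher in ATAH and 2 in ATAS than in ATAB, and their part in the levels of these proteases was not tested.

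Active proteases of these families hold zinc by a motif with 3 histidines, which was looked for in the translated coding sequences on the coding strand. The metzincin zinc-binding motif was found in 27 members, namely 10 of 10 MMPs, 6 of 10 ADAMs with a readable coding sequence and 11 of 15 ADAMTS proteases, and in 0.303% of all clusters with a readable coding sequence. After this search a variant with asparagine in place of the glycine of the motif was added: it was found in the remaining 4 ADAMTS proteases (ADAMTS1, ADAMTS9, ADAMTS15 and ADAMTS20) and in no other cluster. ADAM22, ADAM23, ADAM32 and ADAM33 held neither, and the ADAM33 cluster has a coding sequence of 726 bases only. The 33 bases of the motif are shown for some of the MMPs and ADAMTS proteases described above, chosen with their values known, with the codons of its histidines, its glutamate and its glycine or asparagine in capitals.
MMP2: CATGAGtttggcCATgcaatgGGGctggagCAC
MMP16: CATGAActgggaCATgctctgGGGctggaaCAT
MMP11: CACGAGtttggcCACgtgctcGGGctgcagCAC
ADAMTS19: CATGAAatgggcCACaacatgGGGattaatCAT
ADAMTS5: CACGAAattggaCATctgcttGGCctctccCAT
ADAMTS1: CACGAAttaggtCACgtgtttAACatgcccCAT
ADAMTS9: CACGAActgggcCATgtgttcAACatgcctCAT
ADAMTS15: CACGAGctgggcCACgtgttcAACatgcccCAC
The proteases with the asparagine variant did not share 1 pattern of levels: ADAMTS20 had 21, 14, 20 and 12 reads in ATFB, ATAB, ATAH and ATAS and was called in no comparison. The letters say nothing of the activity of the proteins.

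ADAM proteases shed proteins from the cell surface. Of 11, 3, 1 and 5 were called higher than ATFB in ATAB, ATAH and ATAS, where 9.61%, 14% and 15.6% of all clusters were. None was called lower, which with 11 genes is near the 13.3%, 10% and 10.8% of all clusters called lower. Called higher were ADAM33 in all 3 adult libraries, ADAM9 in ATAB, ADAM10, ADAM15 and ADAM23 in ATAS, and LOC783304 in ATAB and ATAS (ADAM9, ADAM10, ADAM23 and LOC783304 picked after their values were seen). With ACTB as the scaling gene the log2 ratio of ADAM9 in ATAB went from 1.18 to 0.95 and that of ADAM10 in ATAS from 1.22 to 0.97, both under the threshold. ADAM33 had 4.81 RPKM in ATFB and 10.9, 20.9 and 32.1 in ATAB, ATAH and ATAS, 2.26-fold to 6.68-fold over ATFB (in ATAB a log2 ratio of 0.94 with ACTB as the scaling gene), with an adjusted p of 0.047 for stage (edgeR). ADAM15 had 37.9, 36.01, 55.4 and 77.6 RPKM and was called higher in ATAS than in ATFB (log2 ratio 1.03) and ATAB (log2 ratio 1.11), calls lost with edgeR's TMM normalization (0.91 and 0.81).

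Of the inhibitors, TIMP3 and TIMP4 were called higher in each adult library, while TIMP2 was called in none, though its log2 ratio in ATAH went from -0.90 to -1.17 with ACTB as the scaling gene. TIMP2, which also takes part in activating MMP2, had 780.2 RPKM in ATFB and 524, 419.5 and 661 in ATAB, ATAH and ATAS. TIMP3, the inhibitor that stays bound to the matrix, had 87.9, 220.5, 274 and 319 RPKM, and TIMP4 33.1, 174, 279 and 288 RPKM. In the test of stage the adjusted p was 0.032 for TIMP3 and 0.011 for TIMP4 (edgeR). The summed TIMPs stood at 1.11 times the level of MMP2 in ATFB and at 4.40, 4.04 and 4.22 times in ATAB, ATAH and ATAS. This is a ratio of transcripts, and neither protein nor protease activity was measured.

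**Figure D3:**
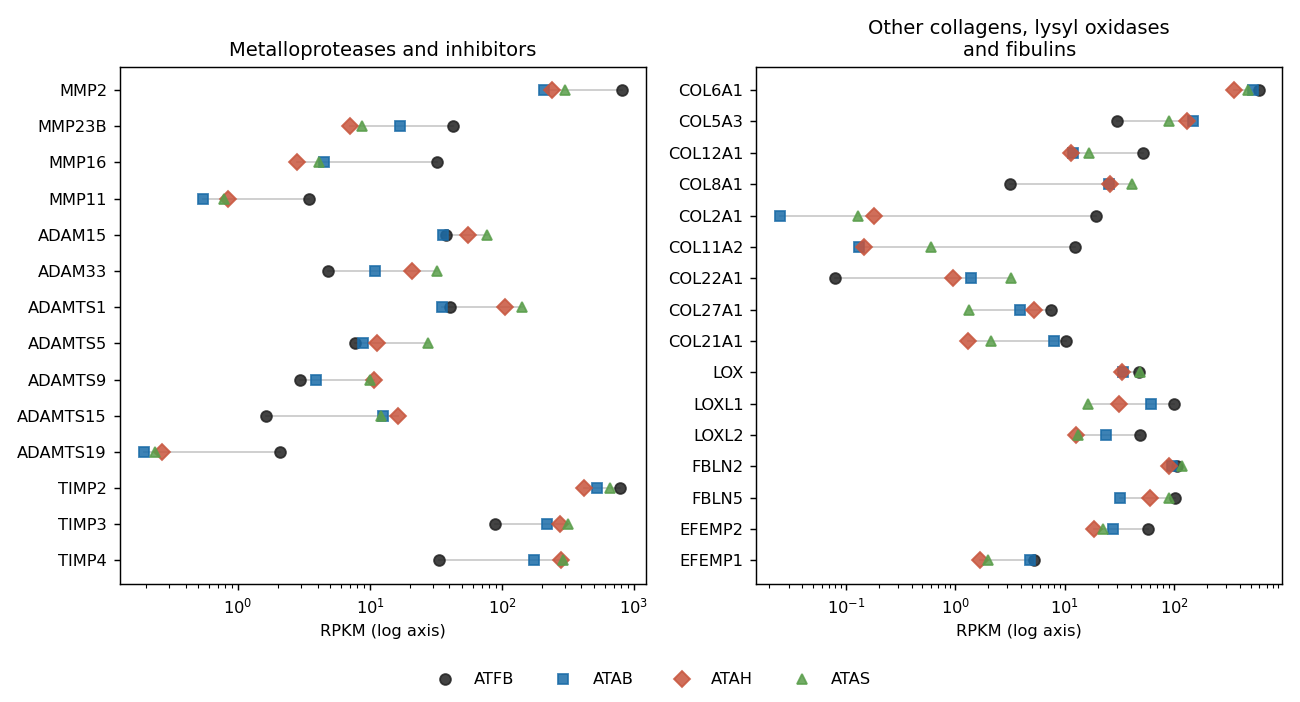
Each point is the RPKM of a gene in 1 library on a log axis, with the same symbols for the libraries as in the plot of basement membrane and integrin genes. MMP2, MMP16, COL2A1 and COL11A2 are highest in the fetal library, TIMP3, TIMP4, ADAMTS15 and COL8A1 lowest there, and LOXL1 spreads over all 4 libraries.

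Of 5 lysyl oxidases, which join matrix chains, 1, 3 and 3 were called lower than ATFB in ATAB, ATAH and ATAS, where 13.3%, 10% and 10.8% of all clusters were, and none was called higher. LOXL1, needed for elastic fibres, had 99.8 RPKM in ATFB and 61.4, 31.3 and 16.4 in ATAB, ATAH and ATAS, and was called lower in ATAH and ATAS than in ATFB and in ATAS than in ATAB (3.75-fold). LOXL2 had 48.3, 23.7, 12.7 and 13.2 RPKM and was called lower in each adult library, by a log2 ratio of -1.03 in ATAB that became -0.85 with edgeR's TMM normalization. LOX, the founding member of the family, had 48.0, 34.2, 33.4 and 48.9 RPKM and was called in no comparison, nor was LOXL3 at 3.44 to 4.61 RPKM. A further cluster without a symbol, described as a lysyl oxidase-like protein, had 12.2, 10.2, 3.96 and 5.74 RPKM and was called lower in ATAH and ATAS. None of the 5 was called in the test of stage (edgeR adjusted p of 0.068 for LOXL2 and 0.19 for LOXL1).

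Fibulins are small proteins that bind elastic fibres and basement membranes. EFEMP2 (fibulin-4), needed for elastic fibre assembly, had 58.3 RPKM in ATFB and 27.5, 18.4 and 22.6 in the adult libraries, and was called lower in each, in ATAB not with TMM (-0.90), and in the test of stage (edgeR adjusted p = 0.044). FBLN5, which guides elastin onto its scaffold, was high in fetuses and steers, with 101, 32.1, 60.5 and 89.6 RPKM. It was called lower in ATAB than in ATFB and higher in ATAS than in ATAB (log2 ratio 1.48, 95% interval 1.39 to 1.57). EFEMP1 had 166, 161, 54 and 64 reads and was called lower in ATAH and ATAS than in both ATFB and ATAB. FBLN1, FBLN2 and FBLN7 were called in no comparison, with FBLN2 the most abundant at 107, 96.2, 89.7 and 117 RPKM.

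Over all members, 19 of 113 were called higher than ATFB in all 3 adult libraries and 11 lower, while 6.85% of all clusters were called higher in all 3 and 6.19% lower. In the test of stage, 102 of 113 members passed the filter on low counts, 17 were called higher in the adult libraries and 12 lower at an FDR of 0.05, against 9.83% and 8.40% of all clusters tested. The counts depended on single libraries: without ATAH they were 10 and 6, and without ATAB 21 and 21. Among named members, the calls lost without ATAH were those of COL5A3, COL12A1, LAMA2, ITGA6, MMP2, ADAM33, TIMP3 and EFEMP2. The 3 adult libraries differ in sex and castration, and the test of stage took the spread between them, shared in part over all genes, as its error. Fetal fat rested on 1 pool.

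**Figure D4:**
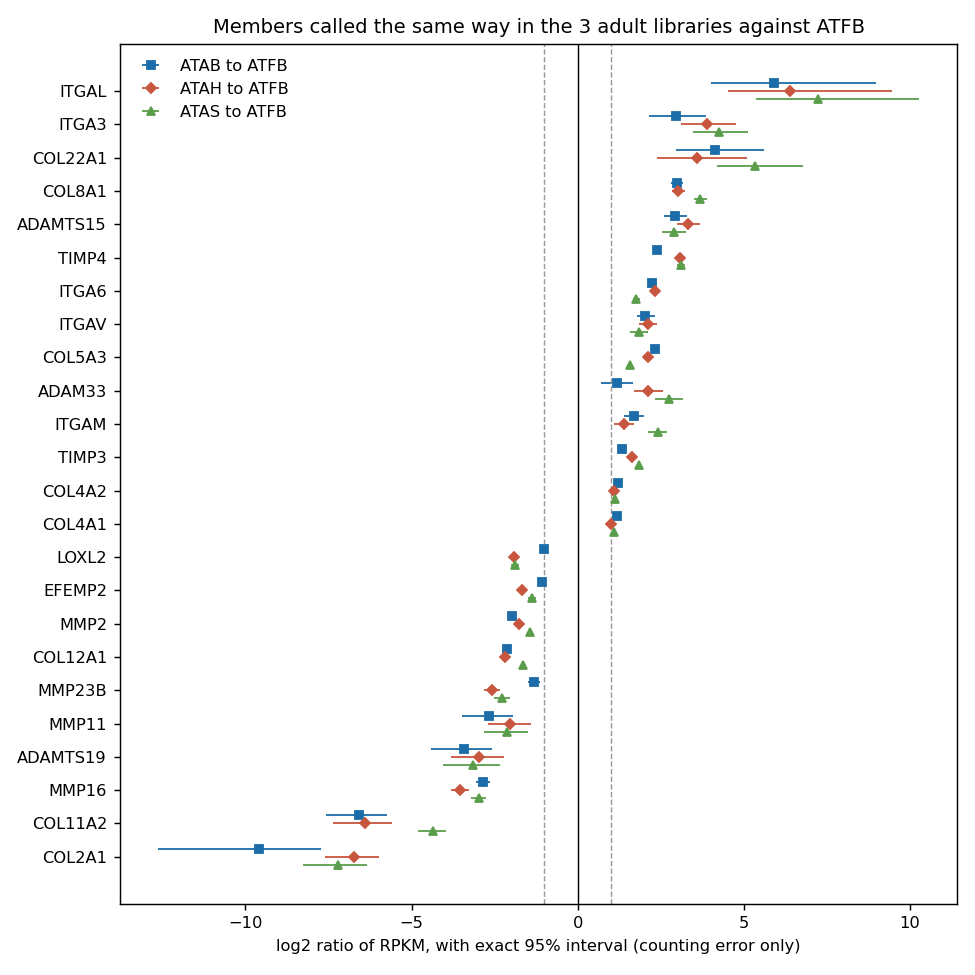
Points are log2 ratios of RPKM of each adult library to ATFB with exact 95% intervals that cover counting error only, dashed lines mark a log2 ratio of 1 in either direction, and squares, diamonds and triangles are ATAB, ATAH and ATAS. COL2A1 and COL11A2 lie farthest to the left, ITGAL farthest to the right, and COL4A1 and COL4A2 sit at the line.

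Between adult pools fewer members differed. In ATAH against ATAB, 5 of 110 members were called higher and 8 lower, against 4.32% and 1.26% of all clusters (5.58% in either direction), and with edgeR's TMM normalization, which lowers each log2 ratio of that comparison by 0.28, 3 were higher and 13 lower. In ATAS against ATAB, 13 of 111 were called higher and 6 lower, against 7% and 1.89% of all clusters (8.88% in either direction), and TMM, which lowers each ratio by 0.29, gave 10 and 14. In ATAS against ATAH, 6 of 111 were called higher and 1 lower, against 1.59% and 1.49% (3.08% in either direction). The 3 comparisons share libraries. With the assumed coefficient of variation of 0.4, no member was called between adult pools. Under all 3 scalings ADAMTS1 and ADAMTS9 stayed called above ATAB in both ATAH and ATAS, LAMB1, ADAMTS5 and FBLN5 higher in ATAS than in ATAB, and COL21A1, LOXL1, COL27A1 and EFEMP1 lower in ATAS than in ATAB. The intervals of ADAMTS1 (1.95 to 2.08) and LOXL1 (-2.04 to -1.78) for the log2 ratio of ATAS to ATAB lay well away from 0, but only counting error is in them. Of the 80 members with at least 100 reads, 28 had their highest level in ATFB and 15, 10 and 27 in ATAB, ATAH and ATAS, which is 35%, 18.8%, 12.5% and 33.8%, beside 37.9%, 8.56%, 17.5% and 36.1% of the 14199 clusters with as many reads. The lowest level was in ATFB for 35 members and in ATAB, ATAH and ATAS for 22, 17 and 6, which is 43.8%, 27.5%, 21.2% and 7.5%, beside 40.3%, 34.8%, 11.1% and 13.9% of those clusters.

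**Figure D5:**
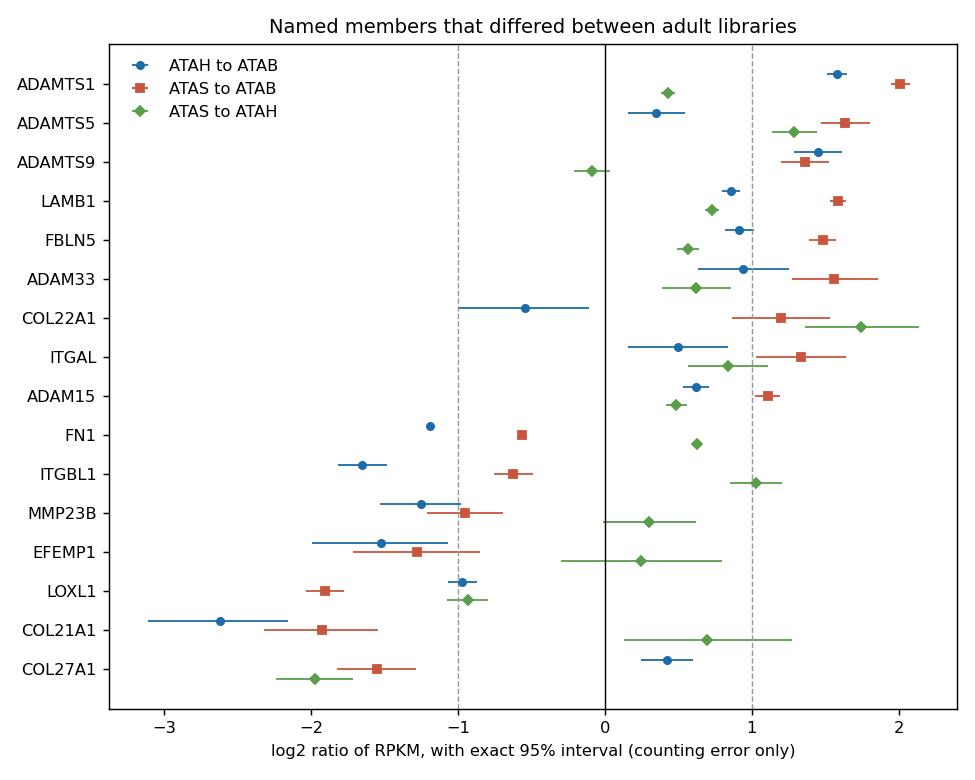
Points are log2 ratios of RPKM between adult libraries with exact 95% intervals that cover counting error only, circles ATAH to ATAB, squares ATAS to ATAB and diamonds ATAS to ATAH, with dashed lines at a log2 ratio of 1 in either direction. ADAMTS1 and ADAMTS9 lie to the right in both comparisons with the bull pool and LOXL1 and COL21A1 to the left, while COL27A1 is low in ATAS only.

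Other genes of basement membranes, adhesion, collagen making, matrix and proteolysis gave the setting. Of 83 listed genes, 55 had a cluster. Against ATFB, 13 were called higher and 14 lower in ATAB, 14 and 18 in ATAH, and 20 and 17 in ATAS, and 9 were called higher and 8 lower in the test of stage. Of all clusters tested, 9.61% were called higher and 13.3% lower in ATAB, 14% and 10% in ATAH, 15.6% and 10.8% in ATAS, and 9.83% and 8.40% in the test of stage. Of 4 basement membrane genes, 1, 1 and 2 were called higher in ATAB, ATAH and ATAS. HSPG2 (perlecan, the proteoglycan of basement membranes) had 42.8 RPKM in ATFB and 116, 142 and 143 in the adult libraries, called higher in each. NID1, the linker of laminin and collagen IV, had 93.6, 140.3, 158 and 203 RPKM and was called higher in ATAS only. Among 20 receptor and adhesion genes, 8, 9 and 11 were called higher and 3, 2 and 2 lower. TLN1 (talin, which couples integrins to actin) had 43.8, 162, 201 and 265 RPKM, and the collagen receptor DDR1 5.38, 36.8, 52.7 and 43.7. CD44, a hyaluronan receptor, went the other way with 184, 74.4, 41.1 and 47.4.

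In the lists of collagen making and of other matrix, PLOD2 and TNC were called higher in ATAS. Of all clusters tested, 13.3%, 10% and 10.8% were called lower in ATAB, ATAH and ATAS and 9.61%, 14% and 15.6% higher. Of 9 collagen-making genes, 1, 4 and 5 were called lower in these libraries and 0, 0 and 1 higher, and with so few genes 0 or 1 call is near those shares. P4HA1, a prolyl hydroxylase, had 33.3, 10.1, 8.19 and 7.28 RPKM. Of 10 other matrix genes, 6, 8 and 7 were called lower. POSTN (periostin) had 34768 reads in ATFB and 720, 778 and 626 in the adult libraries, and DCN (decorin), a proteoglycan on collagen fibrils, 3916, 1115, 755 and 1155 RPKM. Of 12 genes of other proteolysis, 4, 4 and 5 were called higher in ATAB, ATAH and ATAS and 4, 4 and 3 lower. A2M, a general protease inhibitor, had 19.4, 382, 390.1 and 803 RPKM, while CTSK and FAP, proteases of fibroblasts and matrix turnover, were called lower in each adult library. The median log2 ratio to ATFB in ATAB, ATAH and ATAS was 0.78, 0.78 and 1.13 for receptors and adhesion and -1.56, -1.72 and -1.52 for other matrix.

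The 33 members with under 100 reads in every library gave little to compare. The 6 with under 10 reads in total were COL9A1, COL25A1, CIB3, ADAM28, ADAMTS8 and ADAMTS13. A difference in these was not detectable at this depth.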

How the data were processed

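The authors pooled subcutaneous fat of 5 animals per group, isolated poly(A) RNA, sequenced it on the Illumina platform and aligned cleaned reads with SOAPaligner. Their methods name the masked bosTau7 genome, while the deposited tables list UniGene clusters. The deposited read counts are raw counts of uniquely matching reads. The deposited RPKM values were computed by the authors from these counts, and the deposited coverage is the percent of the cluster sequence covered by reads. The protocol marks no strand, so overlapping genes cannot be separated.

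Members were found by the words of the deposited sequence headers. The members and lists were chosen with earlier results of these data known. Pairs of libraries were compared with the exact binomial test (scipy 1.17.1), Benjamini-Hochberg over all clusters, FDR of 0.001 and log2 ratio of 1. Intervals are exact Clopper-Pearson 95% intervals and, like the limit of 3 reads for a count of 0, cover counting error only. Stage was tested with edgeR 4.0.16 (TMM, filterByExpr, quasi-likelihood test, FDR of 0.05) in R 4.3.3, with DESeq2 1.42.0 as an alternative. A common biological coefficient of variation of 0.301 was found between the adult libraries. Both tests were run on simulated reads with less variation between pools than the adult libraries had. These runs check the code, not how far calls would hold in other pools. Named genes were members with 100 reads in a library that were called in all 3 comparisons with ATFB (up to 12 per direction), the 4 largest called rises and falls between adult pools, the most abundant member of each role, and all collagen IV, laminin, TIMP, lysyl oxidase, fibulin and fibronectin members. Coding sequences were translated with Biopython 1.88. Chromosome positions were not used here. Some items are not reported here.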

Additional observations from a re-analysis of the deposited data

How the results depend on the processing

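No paired analysis was possible because each group had 1 library. For the 58 named members, 2136 alternative values were computed: 1882 kept direction and side of the threshold, 206 lost the call, 48 gained it and none reversed. Values that were not called in either setting are among those kept. The log2 threshold of 1.5, the minimum of 10 reads and the assumed coefficient of variation of 0.4 leave the ratio unchanged, so they could not reverse a direction. Of the 206 lost calls, 126 were lost with that coefficient of variation. Adding reads of members with the same symbol changed nothing, since no symbol was shared. TMM moved every log2 ratio to ATFB by 0.18, -0.10 and -0.12 in ATAB, ATAH and ATAS, and ACTB by -0.24, -0.27 and -0.25. With ACTB as the scaling gene, members called higher in ATAB than in ATFB fell from 25 to 16. With TMM, ATAH against ATAB went from 5 higher and 8 lower to 3 and 13, and members lower in ATAS than in ATAB from 6 to 14. With a log2 threshold of 1.5, 15 members were higher in ATAB than in ATFB, 2 higher and 4 lower in ATAH than in ATAB, 7 higher in ATAS than in ATAB and 2 higher in ATAS than in ATAH. With an assumed coefficient of variation of 0.4, the counts against ATFB were 1 higher and 2 lower in ATAB, 1 and 2 in ATAH and 3 and 2 in ATAS, and 0 in each direction between adult pools, since this test lets pools differ by more than counting error. Leaving out 1 adult library gave 10 to 21 members higher and 6 to 21 lower for stage, the lowest without ATAH in both directions and the highest without ATAB. For the counts that changed with ACTB, TMM or a library left out, the cause was not tested. DESeq2 called 24 higher and 14 lower, edgeR's likelihood ratio test 22 and 18, against 17 and 12 in the quasi-likelihood test. Depth limits the 33 members with under 100 reads, and the single fetal pool limits every statement on stage.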
